A study of Oryza sativa Indica Group with 16 samples.

Results

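Type 2C protein phosphatases (PP2C) remove phosphate from serine and threonine residues and need magnesium or manganese to do so. In plants the family is large. Its clade A holds the co-receptors of the stress hormone abscisic acid (ABA). Without the hormone these enzymes keep kinases of the SnRK2 family, named SAPK in rice, inactive. ABA bound to a receptor of the PYL family blocks the phosphatase and frees the kinase. Clade A genes are known to be induced by ABA, drought and salt in several plants, and the other clades act in development, immunity and other signalling.

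The PP2C genes described here are those named PP2C or OsPP2C with a number in the rice gene table and measured by a probe set annotated to that gene alone. The table names 60 such genes, and 55 have a probe set of their own, out of 17905 genes with one in the whole data set. OsPP2C41, OsPP2C49, OsPP2C50, OsPP2C65 and OsPP2C77 have none. The 55 genes hold 72 probe sets, and for the 12 genes with more than 1, the brightest over the bulk arrays stands for the gene. Clade A is represented by 7 genes, OsPP2C06 (ABIL1), OsPP2C08, OsPP2C09, OsPP2C30, OsPP2C51, OsPP2C53 (ABIL2) and OsPP2C68 (OsPP108 or OsSIPP2C1), and the other clades by 48.

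Affymetrix rice genome arrays gave the transcript levels of indica rice seedlings, 10 days after germination, of 4 genotypes, with 2 arrays for each genotype and condition and 16 in all. The salt groups had received 150 mM NaCl for 24 h, and the control groups were kept under control conditions. Each bulk, tolerant or sensitive, pools recombinant inbred lines from a cross of the salt-tolerant variety CSR27 and the salt-sensitive variety MI48, and both varieties were measured as well. A bulk is a pool, so it gives no value for a line, and the labels name 2 biological replicates per group without saying how plants were divided among them, so p-values measure the spread between these arrays. Tissue is not named, and 3 leaf genes of the photosynthesis lists had median scaled signals of 5397 to 10090 on the bulk arrays.

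The arrays differed in quality. The deposited signals had medians of 14.8 to 26.1 on the 8 bulk arrays, whose rank correlations with each other lay between 0.9 and 0.93. The other 6 arrays with rice signal, all of the parents, correlated at 0.64 to 0.77 and had medians of 1.5 to 86.3. CSR27 control replicate 2 and CSR27 salt replicate 1 correlated with no other array (highest rho 0.01) and are not used here, which leaves CSR27 with 1 array per condition. MI48 control replicate 2 stood apart from its replicate: its median signal over 5 dehydrin and late embryogenesis genes was 1788, against 30.8 on MI48 control replicate 1, and 7013 and 7351 on the MI48 salt arrays. The bulks are therefore described before the parents. Signals below are scaled so that every array has the bulk arrays' common median of 17.75. Differences are on the scale of log2(signal + 3.86) in the bulks, salt minus control, so changes of dim genes are understated, and a gene is said to have risen or fallen where limma's p-value adjusted over all 32996 probe sets tested was under 0.05. Signals of different PP2C genes are not set against each other, as each comes from its own probe set. The endosperm sum given below adds signals of different probe sets, so the brightest weigh most in it.

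Salt was followed by higher signals of most clade A genes in the bulks. Averaged over both bulks, 6 of the 7 clade A genes rose and 0 fell, with log2 differences of 1.06 to 2.14, while among all probe sets tested 2.63% rose and 12.2% fell. OsPP2C53 was the exception. Among the 47 other PP2C genes tested, 1 rose and 14 fell. OsPP2C31, of the other clades, stayed below the floor for testing on all 8 bulk arrays, at signals of 0.947 to 6.84. The median log2 difference was 1.33 in clade A and -0.23 in the other PP2C genes, against -0.13 over all probe sets tested, of which 64.9% lay below 0. In bulk tissue a smaller share of cells that express a gene and less of its RNA per cell cannot be told apart.

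OsPP2C30, a phosphatase known to bind ABA receptors and the kinase SAPK2, had the largest rise in clade A. Its scaled signals were 589 and 543 in the tolerant bulk under salt, against 93.5 and 113 in its control. They were 440 and 401 in the sensitive bulk under salt, against 124 and 103 in the control. Every salt array exceeded every control array. The averaged difference was 2.14 ± 0.12 on the log2 scale (SE, limma adjusted p = 2.9e-06), a 4.40-fold rise, with 2.42 ± 0.17 in the tolerant bulk (adjusted p = 2.6e-05) and 1.86 ± 0.17 in the sensitive bulk (adjusted p = 0.00017).

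OsPP2C08 had scaled signals of 176 and 225 in the tolerant bulk under salt, against 52.5 and 48.3 in its control. For the sensitive bulk its signals were 112 and 127 under salt, against 48.9 and 28.1 in the control. The salt arrays of each bulk stood above all control arrays, and those of the tolerant bulk were the highest. OsPP2C08 rose by 1.74 ± 0.18 on average (limma adjusted p = 0.00019).

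OsPP2C06, the gene also named ABIL1 after the Arabidopsis phosphatase ABI1, had signals of 492 and 449 in the tolerant bulk under salt, against 178 and 150 in its control. The sensitive bulk gave 489 and 416 under salt, against 187 and 168 in the control. Levels of OsPP2C06 in the bulks lay close together within each condition, and salt and control did not overlap. The averaged difference was 1.42 ± 0.11 (limma adjusted p = 3.0e-05). For OsPP2C09 the signals were 152 and 175 in the tolerant bulk under salt, against 50.4 and 60.0 in its control. In the sensitive bulk OsPP2C09 gave 179 and 171 under salt, against 96.4 and 59.7 in the control. Its arrays did not overlap between conditions either, and it rose by 1.33 ± 0.17 (limma adjusted p = 0.00057).

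OsPP2C51, which is known for a role in seed germination, was dim. Its signals were 26.1 and 36.6 in the tolerant bulk under salt, against 14 and 15 in its control. The sensitive bulk gave 40.4 and 38.6 under salt, against 10.7 and 11.1 in the control. All 4 control arrays lay below the floor for testing and all 4 salt arrays above it, so OsPP2C51 entered the test only through its salt arrays. It rose by 1.24 ± 0.26 on average (limma adjusted p = 0.0094). The difference was 1.55 ± 0.37 in the sensitive bulk (adjusted p = 0.031) and 0.92 ± 0.37 in the tolerant bulk, where it missed the threshold (adjusted p = 0.2). Without tolerant salt replicate 2 the averaged call was lost (adjusted p = 0.054). OsPP2C51 has a second probe set, which was not tested, with bulk signals from 0.664 to 5.28.

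OsPP2C68 had the widest difference in level between the bulks within clade A, in each condition. Its signals were 50.5 and 59.8 in the tolerant bulk under salt, against 37.6 and 14.7 in its control. They were 98.3 and 118 in the sensitive bulk under salt, against 56.4 and 45.5 in the control. Within each bulk salt stood above control, but the tolerant salt arrays overlapped with the sensitive control arrays. OsPP2C68 rose by 1.06 ± 0.25 on average (limma adjusted p = 0.016). The difference missed the threshold in each bulk alone (1.08 ± 0.35 in the tolerant and 1.03 ± 0.35 in the sensitive bulk, adjusted p = 0.11 in both), and the averaged call was lost without tolerant salt replicate 2 (adjusted p = 0.073) or sensitive salt replicate 2 (adjusted p = 0.075).

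OsPP2C53, also named ABIL2, had signals of 143 and 161 in the tolerant bulk under salt, against 176 and 180 in its control. In the sensitive bulk they were 142 and 145 under salt, against 176 and 127 in the control. The averaged difference of -0.14 ± 0.13 did not pass the test (limma adjusted p = 0.55), and it was 0.05 after quantile normalization. Where the other 6 clade A genes showed salt above control within both bulks, OsPP2C53 did so in neither.

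**Figure D1:**
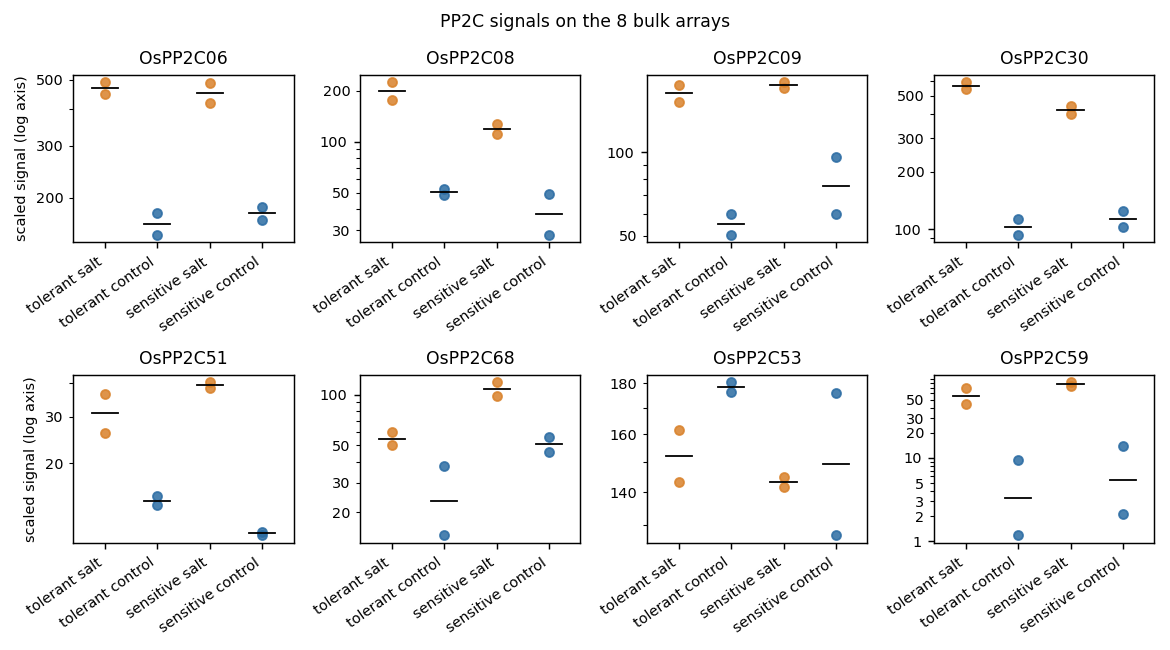
Scaled signal (log axis, a separate range in each panel) on each of the 8 bulk arrays for the 7 clade A genes and OsPP2C59, with salt in orange left of its control in blue, each point 1 array and each bar the geometric mean of 2 arrays. In OsPP2C06, OsPP2C08, OsPP2C09, OsPP2C30, OsPP2C51 and OsPP2C59 all 4 salt arrays lie above all 4 control arrays, and in OsPP2C53 they do not.

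In 5 of the 7 clade A genes all 4 salt arrays exceeded all 4 control arrays, which held for 3.13% of the probe sets tested. The same held for 1 of the 47 other PP2C genes, OsPP2C59. OsPP2C51, among the 5, and OsPP2C59 entered the test only through their salt arrays, so the filter bears on their order. In 12 of the 47 every salt array lay below every control array with median scaling, against 12.3% of all probe sets. As 34 of the 47 are brighter than the median probe set tested, that share is not matched for brightness.

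The gene of the other clades that rose was OsPP2C59. Its signals were 70.0 and 44.2 in the tolerant bulk under salt, against 9.41 and 1.18 in its control. In the sensitive bulk they were 74.0 and 81.0 under salt, against 14.1 and 2.12 in the control. All 4 control arrays lay below the floor for testing, so this gene too was tested only through its salt arrays. The averaged difference of 2.92 ± 0.42 was the largest of the 54 PP2C genes tested (limma adjusted p = 0.0012). At control signals this low its size depends on the pseudocount, and with a pseudocount of 0.25 of the one used it was 3.55. OsPP2C59 rose in the tolerant bulk (2.86 ± 0.59, adjusted p = 0.019) and in the sensitive bulk (2.97 ± 0.59, adjusted p = 0.016).

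**Figure D2:**
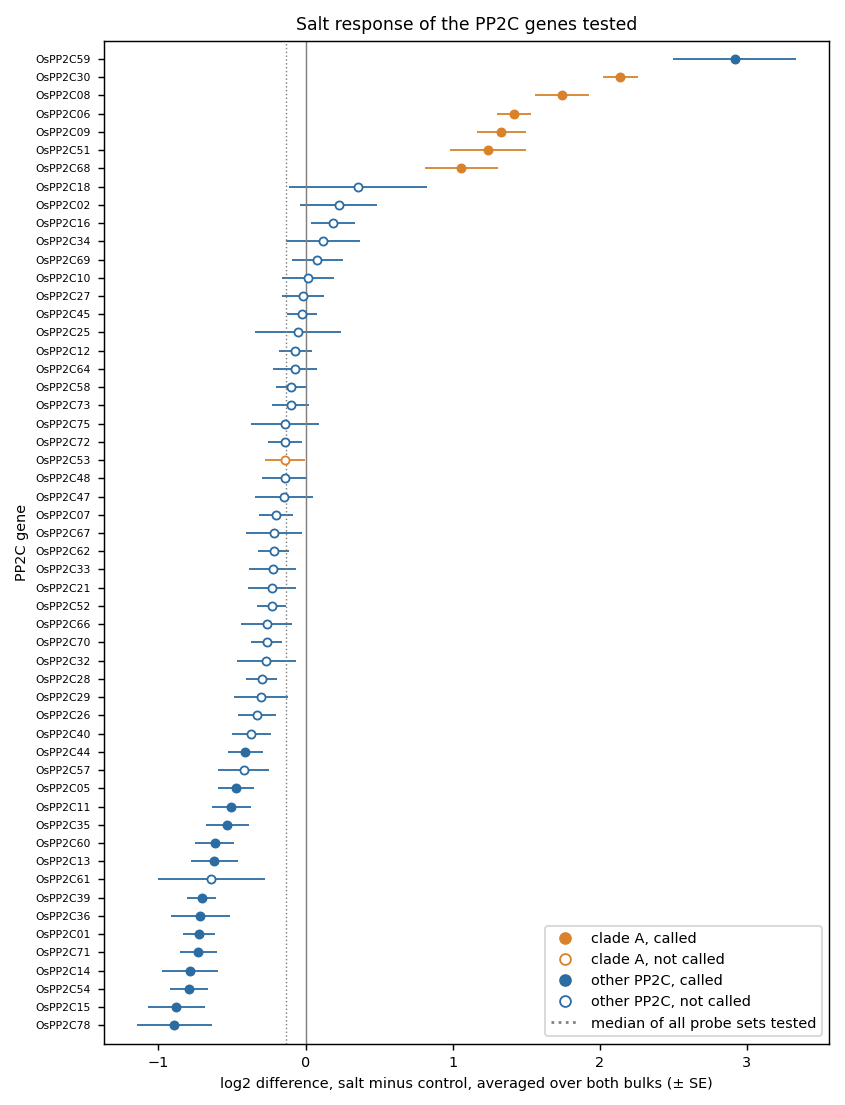
Log2 difference between salt and control averaged over both bulks (x axis, log2 of signal plus pseudocount, with SE) for the 54 PP2C genes tested, ordered by size, clade A in orange, the other clades in blue, filled where the adjusted p was under 0.05, and a dotted line at the median of all probe sets tested (-0.13). The 6 rising clade A genes and OsPP2C59 stand apart from the rest, from 1.06 to 2.92, and OsPP2C53 lies among the other clades.

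The 14 PP2C genes of other clades that fell did so by 0.41 to 0.89 on the log2 scale, less than any of the 6 clade A rises. The 14 are out of 47, beside a background of 12.2% of all probe sets and 21.6% of those brighter than the median probe set tested, as 34 of the 47 are. These 14 falls depend on the scaling: after quantile normalization, which put the median of all probe sets at -0.0042, against -0.13, and moved the calls over all probe sets to 1835 higher (5.57%) and 2118 lower (6.43%), against 867 higher and 4040 lower with median scaling, 7 of the 14 still fell, while all 7 rises remained. OsPP2C01, OsPP2C39, OsPP2C54 and OsPP2C71 fell under each of 12 other settings of the averaged response that used the bulk arrays alone.

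Of those 4, OsPP2C01 passed the test in both bulks, though the call in the sensitive bulk held in only 5 of 13 other settings and was lost after quantile normalization (limma adjusted p = 0.15). Its signals were 434 and 342 in the tolerant bulk under salt, against 716 and 654 in its control, and 479 and 414 in the sensitive bulk under salt, against 703 and 676 in the control. The averaged difference was -0.72 ± 0.11 (limma adjusted p = 0.0016). OsPP2C01 had no overlap between salt and control over the 8 arrays. OsPP2C39 had signals of 579 and 672 in the tolerant bulk under salt, against 1127 and 1245 in its control, and 565 and 572 in the sensitive bulk under salt, against 856 and 748 in the control. Its fall of 0.71 ± 0.10 on average (limma adjusted p = 0.00099) came with -0.92 ± 0.14 in the tolerant bulk (adjusted p = 0.0034) and -0.49 ± 0.14 in the sensitive bulk (adjusted p = 0.059). Its probe set may also bind transcripts of relatives, as its name marks it as shared, and a dimmer second probe set gave -0.66 ± 0.27, which did not pass.

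OsPP2C54 had signals of 184 and 166 in the tolerant bulk under salt, against 358 and 301 in its control, and 195 and 158 in the sensitive bulk under salt, against 324 and 254 in the control. It fell by 0.79 ± 0.13 (limma adjusted p = 0.0027), with no overlap between conditions. OsPP2C71 had signals of 192 and 173 in the tolerant bulk under salt, against 265 and 291 in its control, and 160 and 181 in the sensitive bulk under salt, against 359 and 271 in the control. It fell by 0.73 ± 0.13 (limma adjusted p = 0.0035), and its other probe set fell by 0.68 ± 0.12 (adjusted p = 0.0042).

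OsPP2C14, OsPP2C15 and OsPP2C60 also fell under both scalings, on average by 0.78 ± 0.19, 0.88 ± 0.19 and 0.62 ± 0.13 with median scaling (limma adjusted p = 0.020, 0.012 and 0.010). OsPP2C14 had signals of 193 and 195 in the tolerant bulk under salt, against 283 and 244 in its control, and 125 and 106 in the sensitive bulk under salt, against 367 and 182 in the control. OsPP2C15 had 46.8 and 53.2 in the tolerant bulk under salt, against 92.4 and 63.9 in its control, and 55.8 and 40.4 in the sensitive bulk under salt, against 133 and 94.0 in the control. For both genes the difference was wider in the sensitive bulk, where they fell (-1.14 ± 0.27 for OsPP2C14, adjusted p = 0.033, and -1.17 ± 0.27 for OsPP2C15, adjusted p = 0.030), than in the tolerant bulk (-0.43 ± 0.27 and -0.59 ± 0.27). The difference between the bulks did not pass the test for either. The calls in the sensitive bulk held in only 5 of 13 other settings for OsPP2C14 and 6 of 13 for OsPP2C15. OsPP2C60 had 415 and 416 in the tolerant bulk under salt, against 563 and 733 in its control, and 397 and 360 in the sensitive bulk under salt, against 686 and 490 in the control. Salt and control arrays of these 3 genes overlapped only in OsPP2C14, where a sensitive control array at 182 lay below the tolerant salt arrays.

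The other 7 falls did not pass after quantile normalization. OsPP2C35 is XB15, which dephosphorylates the immune receptor XA21. Its signals were 128 and 131 in the tolerant bulk under salt, against 206 and 191 in its control, and 137 and 105 in the sensitive bulk under salt, against 198 and 140 in the control (averaged difference -0.53 ± 0.15, limma adjusted p = 0.035). OsPP2C13, also named DCW11, had 158 and 208 in the tolerant bulk under salt, against 287 and 231 in its control, and 169 and 140 in the sensitive bulk under salt, against 317 and 214 in the control. OsPP2C05 had 222 and 221 in the tolerant bulk under salt, against 282 and 281 in its control, and 288 and 272 in the sensitive bulk under salt, against 509 and 361 in the control. In each of these genes salt was below control within both bulks, and the averaged differences were -0.62 ± 0.16 in OsPP2C13 (limma adjusted p = 0.025) and -0.47 ± 0.12 in OsPP2C05 (adjusted p = 0.027). OsPP2C11 had 93.4 and 118 in the tolerant bulk under salt, against 163 and 155 in its control, and 110 and 96.1 in the sensitive bulk under salt, against 148 and 132 in the control. OsPP2C36 had 60.3 and 56.6 in the tolerant bulk under salt, against 93.5 and 95.4 in its control, and 49.9 and 26.4 in the sensitive bulk under salt, against 70.7 and 59.5 in the control. Both had salt arrays below control within each bulk, with averaged differences of -0.50 ± 0.13 in OsPP2C11 (limma adjusted p = 0.030) and -0.71 ± 0.20 in OsPP2C36 (adjusted p = 0.036). OsPP2C44 had 303 and 273 in the tolerant bulk under salt, against 341 and 322 in its control, and 231 and 188 in the sensitive bulk under salt, against 355 and 291 in the control (-0.41 ± 0.12, limma adjusted p = 0.041). OsPP2C78 lay near the floor, with 22.5 and 25.9 in the tolerant bulk under salt, against 53.9 and 34.3 in its control, and 29.5 and 15.6 in the sensitive bulk under salt, against 42.3 and 55.3 in the control. It had the largest averaged fall (-0.89 ± 0.26, limma adjusted p = 0.040).

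The remaining 32 PP2C genes of other clades tested did not pass in the averaged response. They ranged from -0.64 ± 0.36 in OsPP2C61 to 0.36 ± 0.47 in OsPP2C18. Among them OsPP2C45 (-0.02 ± 0.10), OsPP2C27 (-0.01 ± 0.14) and OsPP2C10 (0.02 ± 0.18) lay nearest to 0. OsPP2C34, known as OsBIPP2C2 and tied to disease resistance, gave 0.12 ± 0.25. Probe sets of 1 gene did not always give the same result. In OsPP2C48 the brightest gave -0.14 ± 0.16 and a dimmer one 0.55 ± 0.33, and neither passed. In OsPP2C73 the brightest gave -0.10 ± 0.12, and of its 3 others a dim one rose by 0.86 ± 0.22 (limma adjusted p = 0.027), with signals of 60.9 and 42.4 in the tolerant bulk under salt, against 21.5 and 39.3 in its control, and 88.1 and 71.5 in the sensitive bulk under salt, against 34.8 and 41.5 in the control.

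In the tolerant bulk alone, OsPP2C06, OsPP2C08, OsPP2C09 and OsPP2C30 of clade A rose, as did OsPP2C59, beside 0.985% of all probe sets rising and 4.42% falling. OsPP2C01, OsPP2C39 and OsPP2C54 fell there. In the sensitive bulk alone 5 clade A genes rose, the same 4 and OsPP2C51, whose call held in only 4 of 13 other settings, with OsPP2C59 again, beside 1.74% rising and 4.77% falling over all probe sets. OsPP2C01, OsPP2C14, OsPP2C15 and OsPP2C71 fell there. None of the falls called in either bulk alone held in all 13 other settings. The median difference in clade A was 1.5 in the tolerant and 1.33 in the sensitive bulk, and in the other PP2C genes it was -0.20 in the tolerant and -0.33 in the sensitive bulk.

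The study's bulks differ in salt tolerance, so the question is whether PP2C genes responded differently in them. Of the 54 PP2C genes tested, 0 passed the limma test of the difference between the salt responses, against 0.173% of all probe sets, and 3 had an unadjusted p under 0.05, against 6.86%. In clade A the differences of responses, tolerant minus sensitive, ran from -0.63 ± 0.52 in OsPP2C51 (adjusted p = 0.87) to 0.56 ± 0.24 in OsPP2C30 (adjusted p = 0.70). A miss of the threshold with an error of this size does not show that the bulks responded alike. Among the other PP2C genes OsPP2C61 had the largest, 1.00 on the log2 scale, tolerant minus sensitive, at signals near the floor.

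Levels were also compared within each condition. Under salt 0 of 54 PP2C genes differed between the tolerant and the sensitive bulk after adjustment, against 1.28% of all probe sets, and 14 had an unadjusted p under 0.05, against 15% of all. In control 0 of 54 differed, against 1.45%, and 7 had an unadjusted p under 0.05, against 14.1%. OsPP2C68 was lower in the tolerant bulk on every array of each condition, by -0.92 ± 0.35 under salt (limma adjusted p = 0.25) and -0.98 ± 0.35 in control (adjusted p = 0.24), and neither passed. OsPP2C08 was higher in the tolerant bulk by 0.72 ± 0.26 under salt (adjusted p = 0.23) and by 0.40 in control.

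**Figure D3:**
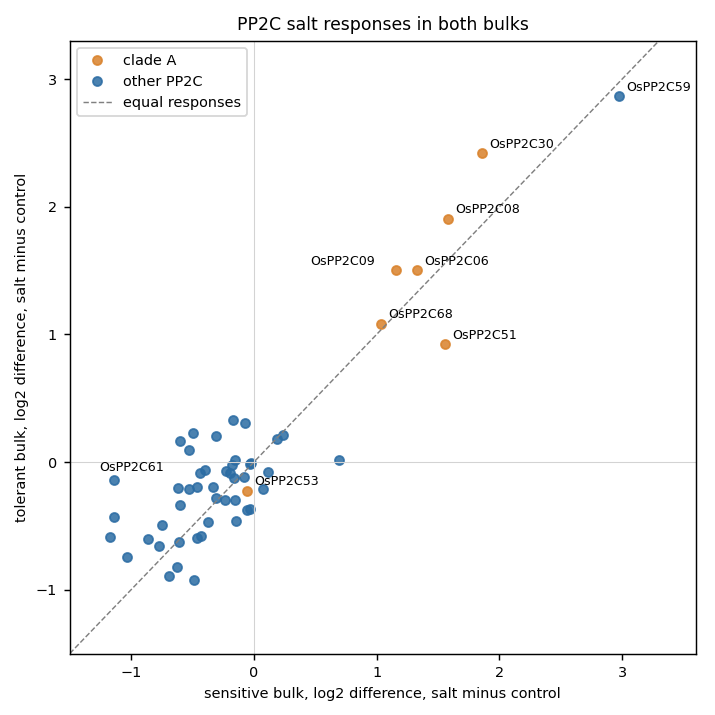
Salt response (log2 difference, salt minus control) of each of the 54 PP2C genes tested in the tolerant bulk (y axis) against the sensitive bulk (x axis), with clade A in orange, the other clades in blue and a dashed line where both are equal. The 6 rising clade A genes and OsPP2C59 lie in the upper right, from OsPP2C30 at 0.56 above the line to OsPP2C51 at 0.63 below it, and OsPP2C53 lies with the other clades.

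Transcripts of 10 endosperm genes, seed storage proteins and the starch synthase GBSS1 among them, varied among the bulk groups. Their summed signal was 810 and 835 in the tolerant bulk under salt, against 5426 and 6335 in its control. For the sensitive bulk it was 1628 and 1570 under salt, against 509 and 641 in the control. GBSS1 was the largest part of the sum on each bulk array. Its signals were 556 and 566 in the tolerant bulk under salt, against 3693 and 4625 in its control. In the sensitive bulk GBSS1 gave 1273 and 1229 under salt, against 224 and 401 in the control. These values are from the brightest GBSS1 probe set, and dimmer ones did not all change in the same direction within each bulk. None of the 10 genes was at 0 on a bulk array. The sum was lower under salt in the tolerant bulk and higher in the sensitive bulk. By gene, all 10 had a log2 difference below 0 in the tolerant bulk. In the sensitive bulk 7 lay above 0 and 3 below. The part of these endosperm differences in the rises and falls of the PP2C genes was not tested.

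Other genes of the ABA pathway give the setting of the clade A rise. Of the receptors, OsPYL11 was the gene on the list with its own probe set. Its signals were 212 and 182 in the tolerant bulk under salt, against 320 and 280 in its control, and 160 and 169 in the sensitive bulk under salt, against 363 and 246 in the control. It fell by 0.72 ± 0.14 (limma adjusted p = 0.0066). Among the 10 SAPK kinases, 0 rose and 2 fell, beside 12.2% of all probe sets falling. They were OsSAPK5 by 0.37 ± 0.10 (adjusted p = 0.038) and OsSAPK8 by 0.36 ± 0.10 (adjusted p = 0.040). None of the 10 kinases passed as higher. The other settings were applied to PP2C genes alone, so the falls of OsPYL11, OsSAPK5 and OsSAPK8 were not checked after quantile normalization.

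Of 3 transcription factors of the pathway, 2 rose. ABF2, the bZIP factor also named OsbZIP23, had signals of 1016 and 1025 in the tolerant bulk under salt, against 499 and 507 in its control, and 994 and 911 in the sensitive bulk under salt, against 458 and 372 in the control, a rise of 1.11 ± 0.10 (limma adjusted p = 6.1e-05). TRAB1, a bZIP factor that binds ABA-responsive elements, rose by 0.86 ± 0.12 (adjusted p = 0.0012), and OsVP1 gave 0.56 ± 0.25, which did not pass. Of 3 genes of ABA synthesis and breakdown, ABA8OX2, an ABA 8'-hydroxylase that breaks ABA down, rose by 1.68 ± 0.19 (adjusted p = 0.00028), and ABA8OX1 (-0.03 ± 0.16) and ABA1 (-0.39 ± 0.13) did not pass. All 5 dehydrin and late embryogenesis genes, which are classic targets of ABA, rose: RAB16B by 4.53 ± 0.14, LEA19 by 3.56 ± 0.21, RAB21 by 3.47 ± 0.09, RAB16D by 2.99 ± 0.18 and RAB16C by 2.28 ± 0.15 on the log2 scale (limma adjusted p of at most 7.7e-06). All 5 rose less in the tolerant bulk, with a median of 2.94 there and 4.04 in the sensitive bulk. The difference of the responses passed in 1 of the 5 (limma adjusted p = 0.034), against 0.173% of all probe sets. In clade A 5 of 7 differences of responses, tolerant minus sensitive, lay above 0, with a median of 0.17.

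**Figure D4:**
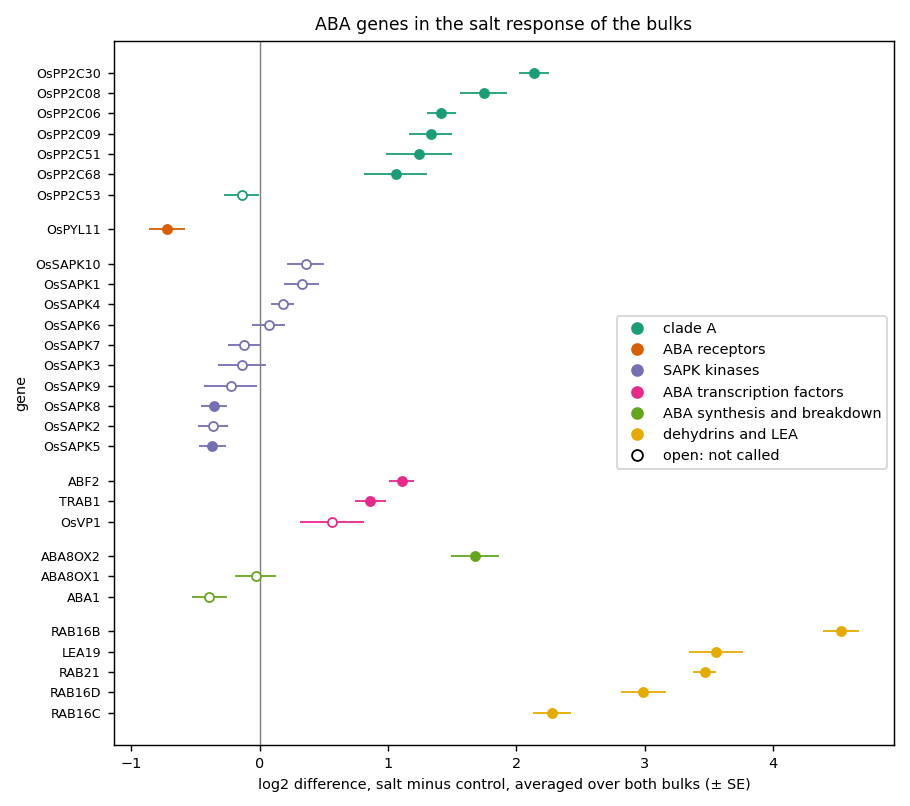
Log2 difference between salt and control averaged over both bulks (x axis, with SE) for the clade A phosphatases and the genes of 5 other ABA lists, filled where the adjusted p was under 0.05. The clade A genes except OsPP2C53 (-0.14), up to 2.14, the bZIP factors ABF2 and TRAB1, ABA8OX2 and the 5 dehydrin and late embryogenesis genes lie to the right, while OsPYL11 (-0.72) lies to the left and the SAPK kinases on either side of 0.

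In MI48, the sensitive parent, the 4 arrays were fitted alone, with a pseudocount of 3.55 and 31067 probe sets tested. The median residual SD there was 0.688, against 0.262 in the bulks, and 0% of all probe sets passed the limma test after adjustment. None of the 53 PP2C genes tested passed, with a lowest adjusted p of 0.14, and 25 had an unadjusted p under 0.05, against 23.7% of all probe sets. Those were all 7 clade A genes and 18 of the 46 others. The salt arrays lay above the control arrays in 7 of 7 clade A genes and 28 of 46 others, against 45.5% of all probe sets, and below in 0 and 3, against 9.35%. The median log2 difference was 3.86 in clade A and 1.19 in the other PP2C genes, against 0.76 over all probe sets tested. After quantile normalization these medians were 2.72, 0.22 and 0.07.

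OsPP2C30 in MI48 had signals of 2476 and 6510 under salt, against 59.8 and 323 in control. OsPP2C68 had 999 and 2627 under salt, against 14 and 233 in control. OsPP2C51 had 169 and 834 under salt, against 11.2 and 31.9 in control. In these genes the higher control value was that of replicate 2, the array with high dehydrin signals, and it still lay below both salt arrays. OsPP2C09 had 1083 and 1342 under salt, against 50.4 and 125 in control. OsPP2C06 had 1367 and 2189 under salt, against 96.2 and 329 in control. OsPP2C08 had 420 and 111 under salt, against 47.6 and 20.1 in control, and here control replicate 1 was the higher. OsPP2C53, which did not rise in the bulks, had 208 and 172 under salt, against 56.1 and 55.6 in control, a difference of 1.70. OsPP2C59 had 1087 and 2650 under salt, against 1.87 and 144 in control. The differences ran from 1.70 in OsPP2C53 to 4.80 ± 0.91 in OsPP2C30 within clade A, and OsPP2C59 gave 5.91 ± 1.46. The clade A median was 4.49 without control replicate 2 and 3.22 without control replicate 1, and OsPP2C30 gave 5.99 without control replicate 2 and 3.62 without control replicate 1. OsPP2C59 gave 8.32 without control replicate 2 and 3.52 without control replicate 1. The deposited MI48 control signals were low: 1.5 and 19.7 in OsPP2C68, 0.2 and 12.2 in OsPP2C59, and 5.1 and 1.7 in OsPP2C08. Scaling multiplied the control arrays by 9.34 and 11.8, and the salt arrays by 0.206 and 3.86. The sizes of the MI48 differences are therefore uncertain.

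CSR27, the tolerant parent, has 1 array with rice signal per condition, salt replicate 2 and control replicate 1, so its values have no replicate check and no test. OsPP2C30 had 598 under salt, against 36.4 in control, a ratio of 14.9 after adding the pseudocount. OsPP2C68 had 345 under salt, against 55.1 in control, and OsPP2C59 had 145 under salt, against 17.8 in control. OsPP2C06 had 306 under salt, against 83.1 in control. In clade A, 6 of 7 genes had a ratio of over 2, OsPP2C09 with the lowest of the 6 at 2.58, against 21% of all probe sets, and 0 were past 2-fold lower, against 25.4%. OsPP2C53 gave 23.3 under salt, against 49.5 in control. In the other PP2C genes 8 of 48 were past 2-fold higher and 9 lower, with a median log2 difference of -0.06, against 1.96 in clade A and -0.20 over all probe sets. Genes that fell in the averaged response of the bulks went both ways in CSR27. OsPP2C01 had 37.7 under salt, against 309 in control, and OsPP2C05 had 176 under salt, against 70.1 in control.

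**Figure D5:**
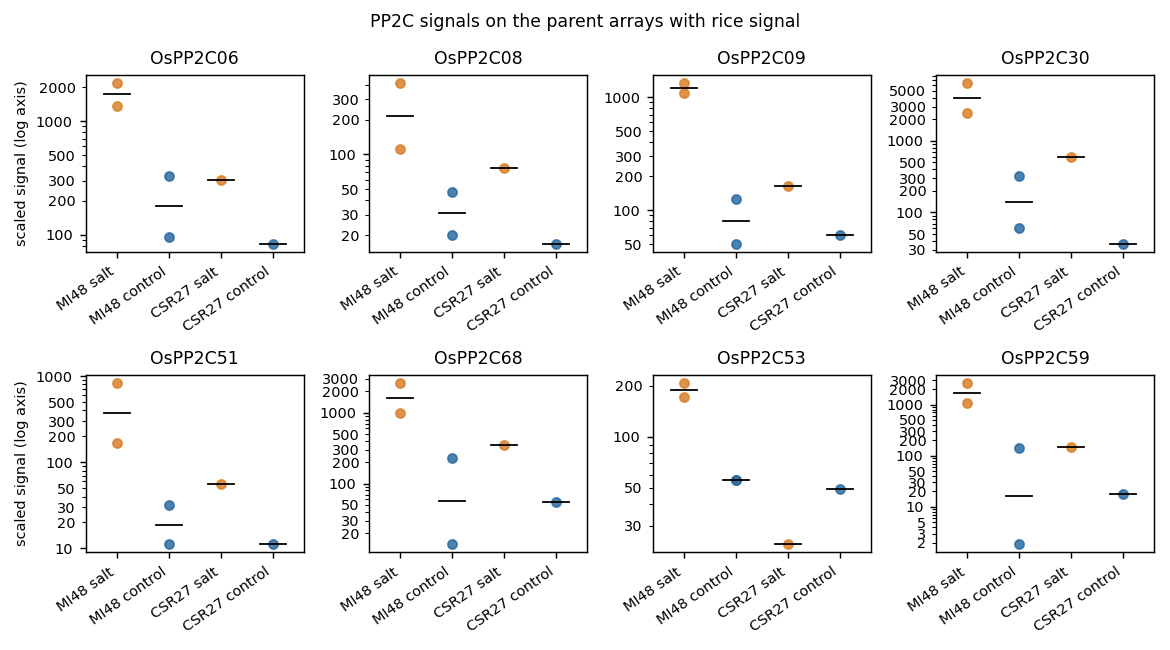
Scaled signal (log axis, a separate range in each panel) on the 6 parent arrays with rice signal for the 7 clade A genes and OsPP2C59, salt in orange left of its control in blue, each point 1 array and each bar the geometric mean of the group's arrays. In MI48 both salt arrays lie above both control arrays in all 8 panels, and in CSR27 the salt array lies above the control array in all but OsPP2C53.

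Across the genotypes, OsPP2C06, OsPP2C08, OsPP2C09, OsPP2C30, OsPP2C51, OsPP2C68 and OsPP2C59 had each salt array above each control array of the same genotype, in the tolerant bulk, the sensitive bulk, MI48 and CSR27 alike, with 1 array per condition in CSR27. This held for 6 of 7 clade A genes and 1 of 47 others, against 2.07% of all probe sets tested in the bulks. OsPP2C51, among the 6, was tested in the bulks only through its salt arrays, so the filter bears on its order there. Of the genes with this order, OsPP2C06, OsPP2C08, OsPP2C09 and OsPP2C30 of clade A passed the test in both bulks separately. The calls of OsPP2C06 and OsPP2C30 held in all 13 other settings in each bulk. Those of OsPP2C08 held in 13 of 13 in the tolerant and 11 of 13 in the sensitive bulk, and those of OsPP2C09 in 11 and 10. OsPP2C59 also passed in both bulks, but it was tested only through its salt arrays. Its call in the tolerant bulk was lost without a filter (limma adjusted p = 0.057) and held in 9 of 13 other settings, against 10 of 13 in the sensitive bulk. OsPP2C53 was the clade A gene without this shared order: it was higher under salt in MI48 and without a call in either bulk. In CSR27 it was lower under salt, at a ratio of 0.51. That ratio rests on 1 array per condition and low deposited signals, 2.1 under salt against 5.3 in control.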

How the data were processed

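Probe set signals of 16 Affymetrix arrays were analysed. Per the submitters' processing notes, the deposited intensity values came from GCOS 1.2; no source used here gives its settings, and the table holds no detection calls. Each array's RNA input was 8 µg per the labels. Control probe sets (123) were left out, leaving 57258. Arrays were scaled to a common median of 17.75. A probe set was tested if at or above that value on at least 2 arrays, as log2(signal + the 25th percentile). Two-sided tests used limma 3.58.1 in R 4.3.3 (lmFit, eBayes with trend, Benjamini-Hochberg over all probe sets tested, threshold 0.05), in a group-means model of the 8 bulk arrays and another of the 4 MI48 arrays; the number of arrays limits the precision. The code was tested on simulated data. Gene names came from the platform annotation and RefSeq's gene table (all 17905 gene IDs matched), and 95 probe sets with several genes stay unnamed. OsPP2C37, of the clade A list, was not found by name. Per-array values are given for clade A and every other PP2C gene called in the bulks.

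The members and gene lists were chosen with earlier results of these data known. Replicate numbers were not used as a block. The alternatives were quantile normalization, no filter, a smaller pseudocount, the replicate number as a block, fits of other array sets and leaving out each array.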

Additional observations from a re-analysis of the deposited data

Results flagged for a closer look

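In 2 PP2C genes every tolerant bulk salt array lay above its control arrays and every sensitive bulk salt array below its own, 2 of 54 tested, against 2.04% of all probe sets. OsPP2C69 gave a log2 difference of 0.33 in the tolerant and -0.17 in the sensitive bulk, and OsPP2C75 gave 0.22 in the tolerant and -0.50 in the sensitive bulk. None of these passed the test in its bulk, and after quantile normalization only OsPP2C75 kept the opposite order. A second probe set of OsPP2C75 did not show it with median scaling. Its signals in the tolerant bulk were 26.1 and 23.9 under salt, against 21.2 and 28.5 in control.

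In 13 PP2C genes outside clade A both MI48 salt arrays lay above both controls while salt lay below control in each bulk, 13 of 54 tested, against 9.09% of all probe sets. In the order MI48, tolerant bulk and sensitive bulk, the log2 differences of OsPP2C14 were 1.74, -0.43 and -1.14. Those of OsPP2C15 were 0.82, -0.59 and -1.17. For OsPP2C26 they were 1.31, -0.20 and -0.47. For OsPP2C28 they were 1.6, -0.28 and -0.31. OsPP2C35 (XB15) gave 1.19, -0.60 and -0.46. OsPP2C39 gave 1.24, -0.92 and -0.49. OsPP2C40, also named OsPP65, gave 1.53, -0.21 and -0.53. OsPP2C44 had 1.88, -0.20 and -0.61. OsPP2C52 had 1.59, -0.064 and -0.40. In OsPP2C54 the differences were 0.84, -0.89 and -0.69, and in OsPP2C58 they were 2.02, -0.12 and -0.081. OsPP2C60 showed 1.72, -0.62 and -0.61, and OsPP2C71 showed 0.84, -0.60 and -0.86. The difference between MI48 and the bulks was not tested. All MI48 probe sets tested had a median of 0.76, and after quantile normalization 0 of the 13 kept the opposite order.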

How the results depend on the processing

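PP2C genes called (main count 21 in the averaged response, 8 in the tolerant bulk, 10 in the sensitive bulk, 0 elsewhere) depended on which arrays were fitted, a choice that also set the filter and the probe sets tested (42300 with 14 arrays and 50537 with 16, against 32996). With all 16 arrays, or the 14 with rice signal, 0 PP2C genes were called in any bulk comparison, while in MI48 4 were called with 16 arrays and 30 with 14, all higher. The log2 differences themselves moved little, as in OsPP2C30, at 2.13 averaged with 16 arrays and 2.14 with 8. With only the 4 arrays compared, 16 were called in the tolerant bulk, 2 in the sensitive bulk and 5 between the bulks under salt. Without a filter 6 were called in the sensitive bulk, and quantile normalization called 1 between the bulks in control. Same-numbered arrays deviated from their group means with correlations of -0.00049 to 0.027 over 6 pairs of bulk groups and of 0.11 in MI48. These values cannot show whether same-numbered arrays were handled together. With the replicate block 21 were called in the averaged response, 8 in the tolerant and 12 in the sensitive bulk. Leaving out each array gave 10 to 28 in the averaged response (10 without sensitive salt replicate 2, 28 without sensitive control replicate 2), 4 to 13 in the tolerant bulk, 2 to 26 in the sensitive bulk, 0 to 1 for the difference of responses, 0 to 3 between the bulks in control, 0 to 4 under salt and 0 in MI48. OsPP2C06, OsPP2C08, OsPP2C09, OsPP2C30 and OsPP2C59 rose in the averaged response under all 12 settings with bulk arrays alone. OsPP2C59 missed the threshold in the tolerant bulk without a filter (limma adjusted p = 0.057).

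Some uncalled differences changed sign. After quantile normalization OsPP2C53 gave 0.052 averaged and 0.15 in the sensitive bulk, OsPP2C44 gave 0.0031 in the tolerant bulk, the difference of responses of OsPP2C68 was -0.062, and MI48 gave -0.26 for OsPP2C01, -0.67 for OsPP2C05, -0.89 for OsPP2C11, -0.0033 for OsPP2C15, -0.084 for OsPP2C39, -0.068 for OsPP2C54 and -0.21 for OsPP2C71. With each array left out, OsPP2C53 ranged from -0.29 to 0.17 in the sensitive bulk, and the difference of responses ranged from -0.040 to 0.68 for OsPP2C08 and from -0.53 to 0.63 for OsPP2C68. In MI48 the ranges were -0.64 to 1.34 for OsPP2C01, -0.83 to 1.93 for OsPP2C05, -0.23 to 0.67 for OsPP2C11 and -0.082 to 1.65 for OsPP2C78. The cause was not tested. No detection calls were used, so a dim control signal, as in OsPP2C51 and OsPP2C59, bounds no level.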
